A study of Drosophila melanogaster with 6 samples.

Results

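The genes described here encode the core machinery that releases neurotransmitter from synaptic vesicles in *Drosophila melanogaster*. There were 10 of them, chosen by name for their role with earlier results of these data known: Syt1, cpx, nSyb, Syx1A, Snap25, unc-13, Rab3, brp, Syn and shi. All 10 were found among the 16641 gene IDs of the count files, and all 10 passed the filter on low counts in the test. Heads of 3-day-old males grown at 18 C were profiled by RNA sequencing in 3 libraries of Adar5G1 mutant flies and 3 libraries of w1118 flies. The mutant stock is labelled with y and sc beside Adar5G1, an allele that removes the fly adenosine deaminase acting on RNA, and the wild type is the laboratory strain w1118, which carries a mutation in white. Each genotype was 1 stock, no shared genetic background is stated in the labels, and the labels leave unsaid if replicate libraries were made from separate collections of flies. P-values therefore cover only the spread among the 3 libraries per genotype, which could be technical.

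Calcium entry at an active zone makes synaptic vesicles fuse with the plasma membrane. Fusion is driven by SNARE proteins, with synaptobrevin (nSyb) on the vesicle and syntaxin (Syx1A) and Snap25 on the plasma membrane. Synaptotagmin (Syt1) is the calcium sensor, and complexin (cpx) binds the SNARE complex and restrains spontaneous release. The priming factor Unc-13, the vesicle GTPase Rab3, the active zone scaffold Bruchpilot (brp) and the vesicle-clustering phosphoprotein Synapsin (Syn) act before fusion, and the dynamin Shibire (shi) retrieves membrane afterwards. Adar edits coding adenosines in several of these transcripts, among them those of Syt1, cpx, unc-13 and Syn. The values here are counts of fragments per gene and hold no information on editing or on isoforms.

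The libraries held 6872569 to 21639081 counts each. The mutant libraries 1, 2 and 3 had 5, 1 and 19 counts of Adar, against 2860, 6142 and 2602 for libraries 1, 2 and 3 of w1118, so the libraries matched their labels. Markers of neurons and photoreceptors were abundant, as their summed levels of 7405 to 8384 CPM and 14979 to 19902 CPM show (CPM, counts scaled to a common library size with TMM factors). The members had 1832 to 57171 counts in a library, which gives a counting error (1 SD, Poisson) of at most 2.34% per value. Across all genes tested in Adar5G1 against w1118, 900 of 10201 rose (8.82%) and 523 fell (5.13%), by the quasi-likelihood test of edgeR with a Benjamini-Hochberg adjusted p under 0.05. The split was 812 and 764 with upper-quartile scaling, 582 and 209 with total counts only, and 1092 and 334 with library sizes set from neuron markers. The libraries numbered 3 stood apart from replicates 1 and 2 of their groups. In Adar5G1 the chi-square per degree of freedom over protein-coding genes was 20.1 and 16.5 between replicate 3 and replicates 1 and 2, and 6.45 between the latter. In w1118 the same values were 5.59 and 11.2, and 4.29. This measure also grows with the depth of the libraries compared. Adar5G1 replicate 3 was the deepest of its group (21639081 counts against 12040951 and 7189944), and in w1118 replicate 2 was (17709643 counts). Ribosomal RNA genes took 6.22% to 16.3% of counts, and in each group their share was highest in replicate 3 (11.6% and 16.3%); its part in the results was not tested. The fold changes of the members are therefore also given without Adar5G1 replicate 3, without both libraries numbered 3, or both ways.

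Syt1 was the only one of the 10 genes that passed the test. It rose 1.43-fold in Adar5G1, while 0 members fell, where 8.82% of all genes rose and 5.13% fell, 13.9% in either direction. At an unadjusted p under 0.05, which 15.1% of all genes passed as a rise and 11.3% as a fall, shi also passed, as a fall. DESeq2 and limma-voom each called 1 rise and 0 falls as well. The median log2 fold change over the 10 genes was 0.01, against 0.00 over all genes tested, and 5 genes had positive and 5 negative values. The members ran from -0.18 for shi to 0.52 for Syt1 on the log2 scale. In bulk heads, fewer neurons and less RNA per neuron cannot be told apart, and this holds for each value that follows.

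**Figure D1:**
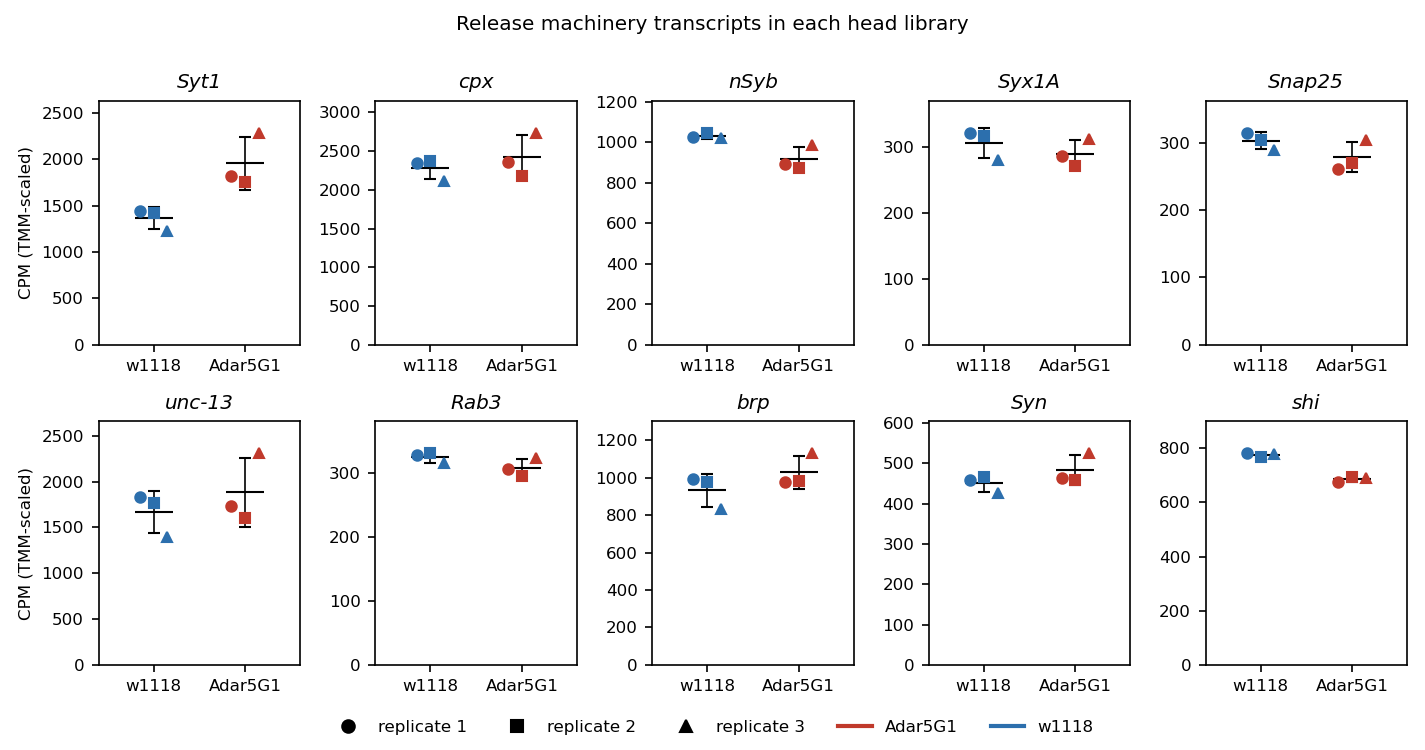
Level of each gene (CPM after TMM scaling, axes from 0) in the 6 head libraries, w1118 in blue and Adar5G1 in red, with the symbol shape giving the replicate number and black bars the mean ± SD. The groups stand apart for Syt1 (Adar5G1 higher) and for nSyb and shi (Adar5G1 lower), and the triangles of replicate 3 lie high in Adar5G1 and low in w1118 for most genes.

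The calcium sensor gene Syt1 (FBgn0004242, 2L:2779267-2799979 in dm3, minus strand) had 1822, 1757 and 2284 CPM in the Adar5G1 libraries, in the order of replicates 1, 2 and 3 that is kept below, and 1440, 1422 and 1224 CPM in the w1118 libraries. Every Adar5G1 library was above every w1118 library, as for 17.1% of all genes tested, and the highest and the lowest values were those of the libraries numbered 3. The means were 1954 ± 287 and 1362 ± 120 CPM (SD, n = 3 each), a log2 fold change of 0.52 (SE 0.13, 95% interval 0.23 to 0.82, edgeR adjusted p = 0.0300). Without Adar5G1 replicate 3 the log2 fold change was 0.39 (adjusted p = 0.0397), or 1.31-fold, and without both libraries numbered 3 it was 0.32 (adjusted p = 0.0214), or 1.25-fold. The rise therefore did not depend on Adar5G1 replicate 3 for its direction or its call, and its size was smaller without that library. The call was lost without Adar5G1 replicate 1 (adjusted p = 0.0638) and without w1118 replicate 1, 2 or 3 (adjusted p = 0.0955, 0.0898 and 0.0858), with log2 fold changes of 0.45 to 0.57. It was also lost with upper-quartile scaling (log2 fold change 0.46, adjusted p = 0.0613) and with total counts only (log2 fold change 0.50, adjusted p = 0.738).

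Complexin, encoded by cpx (FBgn0041605, 3R:105943-130326, plus strand), was the most abundant member by CPM. Its level was 2355, 2180 and 2738 CPM in Adar5G1 and 2344, 2369 and 2116 CPM in w1118. These groups overlapped, with Adar5G1 replicate 3 the highest and w1118 replicate 3 the lowest. The log2 fold change was 0.09 (SE 0.12, 95% interval -0.18 to 0.36, edgeR adjusted p = 0.698), so changes outside 0.88-fold to 1.29-fold lay beyond the interval. Without Adar5G1 replicate 3 it was -0.01 and without both libraries numbered 3 it was -0.06, so its sign rested on these libraries.

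The 3 SNARE genes were all somewhat lower in Adar5G1, and none of them passed the test (edgeR). For nSyb (FBgn0013342, 3L:1630348-1637752, minus strand) the levels were 891, 872 and 984 CPM in Adar5G1 and 1026, 1046 and 1020 CPM in w1118. The groups did not overlap, with a log2 fold change of -0.17 (SE 0.08, 95% interval -0.36 to 0.02, edgeR adjusted p = 0.228). Among all genes tested 14.4% were lower in Adar5G1 with no overlap. For Snap25 (FBgn0011288, 3L:24067280-24292305, plus strand) the levels were 261, 271 and 304 CPM in Adar5G1 and 315, 305 and 290 CPM in w1118, with replicate 3 again the highest and the lowest of its group. Its log2 fold change was -0.12 (SE 0.08, adjusted p = 0.383). For Syx1A (FBgn0013343, 3R:19927322-19931485, minus strand) the levels were 287, 270 and 312 CPM in Adar5G1 and 321, 316 and 280 CPM in w1118, which overlapped. Its log2 fold change was -0.08 (SE 0.08, adjusted p = 0.621). Of the exonic bases of Syx1A 15.8% were shared with the translation factor gene eIF4EHP on the same strand, and fragments there were counted for both genes. The level of eIF4EHP overlapped between groups as well, at 222 to 267 CPM in Adar5G1 and 232 to 262 CPM in w1118.

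With both libraries numbered 3 left out, the SNARE genes gave more negative values and smaller errors. The log2 fold change was then -0.23 for nSyb (SE 0.06, edgeR adjusted p = 0.0422), -0.22 for Snap25 (SE 0.06, adjusted p = 0.0481) and -0.20 for Syx1A (SE 0.06, adjusted p = 0.0695). The first pair of genes passed the test in that comparison of 4 libraries, in which 6.38% of 10048 genes fell and 11.6% rose, and in no other setting. These values correspond to falls of 1.18-fold and 1.17-fold.

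The proportions of the 3 SNARE genes to each other were compared within each library. Of their summed counts nSyb took 61.7% ± 0.21 in Adar5G1 and 62.9% ± 1.2 in w1118 (SD, n = 3 each). Syx1A took 19.5% ± 0.39 and 18.6% ± 0.90, and Snap25 18.8% ± 0.53 and 18.5% ± 0.40. In each of the 3 genes the difference between the groups was smaller than the larger of its SDs.

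The priming factor gene unc-13 (FBgn0025726, 4:888450-925447, minus strand), on the small chromosome 4, was the most variable member. It had 1731, 1608 and 2312 CPM in Adar5G1 and 1836, 1767 and 1401 CPM in w1118. The highest and lowest libraries were those numbered 3, and replicates 1 and 2 of Adar5G1 lay below replicates 1 and 2 of w1118. Its log2 fold change was 0.18 (SE 0.16, 95% interval -0.20 to 0.55, edgeR adjusted p = 0.57), 0.00 without Adar5G1 replicate 3 and -0.11 without both. The interval with all libraries reached from 0.87-fold to 1.47-fold, the widest among the 10 genes on the log2 scale. Antisense RNA genes CR43425 and CR44029 covered 18.1% and 2.85% of the unc-13 exons on the other strand and had 3.18 to 4.41 CPM and 3.67 to 5.99 CPM, far below unc-13.

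The scaffold gene brp (FBgn0259246, 2R:5391270-5428822, plus strand) had 978, 980 and 1132 CPM in Adar5G1 and 993, 975 and 832 CPM in w1118. Replicates 1 and 2 of both groups lay within a narrow range, and replicate 3 was above it in Adar5G1 and below it in w1118. The log2 fold change of 0.14 (SE 0.10, adjusted p of 0.446 in edgeR) was 0.07 without Adar5G1 replicate 3 and -0.01 without both. The same held for the synapsin gene Syn (FBgn0004575, 3R:6016411-6048164, plus strand), with 463, 458 and 525 CPM in Adar5G1 and 459, 466 and 426 CPM in w1118. Its log2 fold change was 0.10 (SE 0.08, adjusted p = 0.511), 0.03 without Adar5G1 replicate 3 and -0.01 without both. Timp, a metalloproteinase inhibitor gene inside the Syn gene on the other strand, shared 4.29% of the Syn exonic bases as antisense and had 56.5 to 60.1 CPM in Adar5G1 against 46.9 to 55.5 CPM in w1118, with no overlap (adjusted p = 0.161).

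The vesicle GTPase gene Rab3 (FBgn0005586, 2R:6608840-6616708, minus strand) had 307, 295 and 323 CPM in Adar5G1 and 328, 331 and 315 CPM in w1118. The groups overlapped, and its log2 fold change was -0.07 (SE 0.07, 95% interval -0.23 to 0.08, edgeR adjusted p = 0.559), -0.11 without Adar5G1 replicate 3 and -0.13 without both libraries numbered 3. The dynamin gene shi (FBgn0003392, X:15786149-15800749, plus strand) had 675, 694 and 688 CPM in Adar5G1 and 782, 769 and 779 CPM in w1118. The groups did not overlap, each group was narrow, and replicate 3 was not the highest or lowest in either. The log2 fold change of shi was -0.18 (SE 0.07, 95% interval -0.33 to -0.02), or 1.13-fold lower, with an unadjusted p of 0.0285 and an edgeR adjusted p of 0.132. It was -0.18 both without Adar5G1 replicate 3 and without both libraries numbered 3, and did not pass in any setting.

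**Figure D2:**
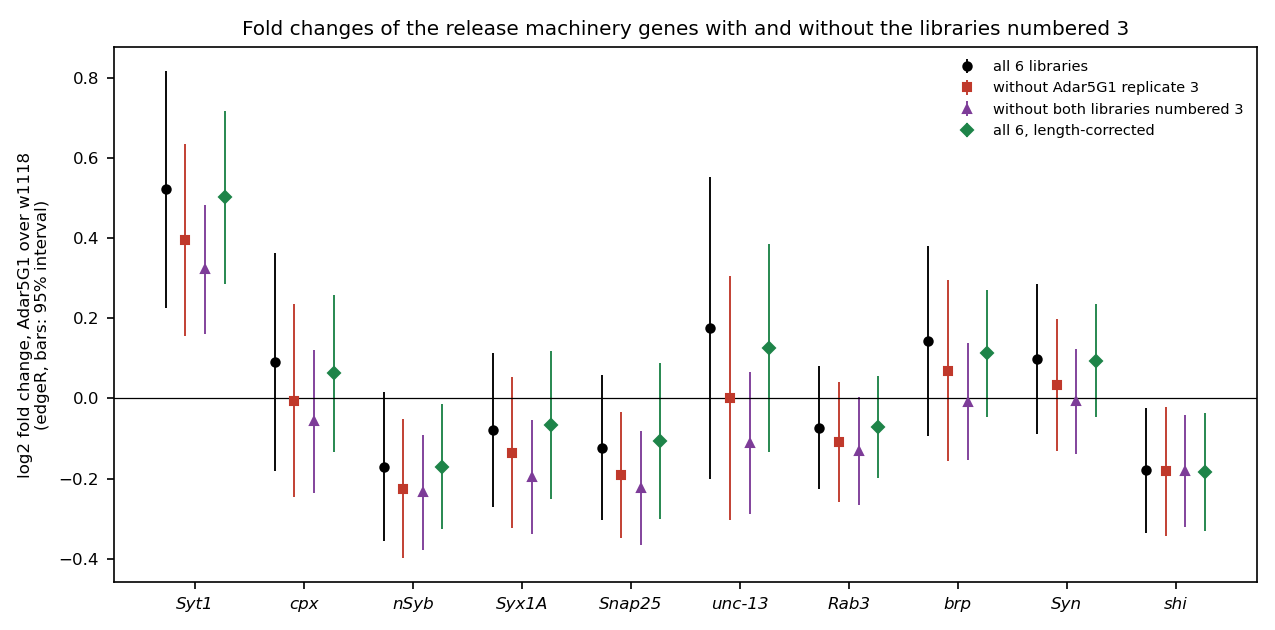
Log2 fold change of each gene, Adar5G1 over w1118, with 95% intervals from edgeR, for all 6 libraries (black), without Adar5G1 replicate 3 (red), without both libraries numbered 3 (purple) and with all 6 after removing each library's trend with gene length (green). Syt1 stays above 0 in all 4, shi stays at -0.18, and cpx, unc-13, brp and Syn move from above 0 to below it without both libraries numbered 3.

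Levels between genes were compared per length, as CPM per kb of exonic sequence. In w1118 the order began with nSyb (253 ± 3.3 CPM per kb), cpx (199 ± 12) and Syt1 (151 ± 13), followed by Snap25 (133 ± 5.5), shi (130 ± 1.1) and Syx1A (108 ± 7.9). Below them were Rab3 (86.5 ± 2.2), unc-13 (85.7 ± 12), Syn (77.6 ± 3.7) and brp (71.2 ± 6.8, all SD, n = 3). Syn was above brp in every w1118 library (79.1, 80.3 and 73.3 against 75.8, 74.4 and 63.5 CPM per kb). The order of Snap25 and shi, of Rab3 and unc-13, and of unc-13 and Syn changed between the w1118 libraries. In Adar5G1 the means were 225 ± 15 CPM per kb for nSyb, 216 ± 32 for Syt1 and 212 ± 25 for cpx. Syt1 was below nSyb and cpx in every w1118 library. In Adar5G1 Syt1 was below nSyb in replicates 1 and 2 (201 and 194 against 219 and 214 CPM per kb). It was above nSyb only in replicate 3 (253 against 242 CPM per kb). The order of Syt1 and cpx changed between the Adar5G1 libraries. The remaining genes ran from Snap25 at 122 ± 9.8 CPM per kb down to brp at 78.6 ± 6.7. Exonic length counts all exons of all annotated isoforms, so a gene with many alternative exons is placed too low on this scale.

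Adar5G1 replicate 3 was above the mean of replicates 1 and 2 for all 10 genes and the highest of its group for 9, shi being the exception. Among the 1730 genes averaging 100 CPM or more, 48.5% were highest of their group in that library. The difference of replicate 3 from the mean of replicates 1 and 2 was 0.47 on the log2 scale for unc-13, 0.35 for Syt1, 0.27 for cpx and 0.21 for brp. For Snap25, Syn, Syx1A and nSyb it was 0.16 to 0.19, and for Rab3 and shi 0.10 and 0.01. In w1118 replicate 3 the members moved the other way: 9 of 10 were below the mean of replicates 1 and 2, against 56.2% of the abundant genes. They were below it by 0.36 for unc-13, 0.24 for brp and 0.22 for Syt1 on the log2 scale. Both libraries thus moved the difference of Adar5G1 minus w1118 upward for most members, which widened it for Syt1 and narrowed it for the SNARE genes. With them set aside, 6 of the 10 genes had both remaining Adar5G1 libraries below both remaining w1118 libraries, and only Syt1 had them above. Of all genes tested 29.3% were lower and 31.1% higher without overlap among these 4 libraries.

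Gene length moved with these shifts in the whole table. Among abundant genes of at least 8 kb of exonic sequence, Adar5G1 replicate 3 lay above replicates 1 and 2 by a median of 0.13 on the log2 scale (402 genes, 78.9% above 0), and among genes under 2 kb it lay below them, with a median of -0.26 (316 genes). The medians for genes of 2 to 4 kb and 4 to 8 kb were -0.07 and 0.09. In w1118 replicate 3 the order was opposite, with medians of 0.16, 0.05, -0.06 and -0.12 from the shortest to the longest class. The 4 members of 8 kb or more were Syt1, cpx, unc-13 and brp, which had 9043, 11414, 19453 and 13102 exonic bases. Across the 10 members Spearman's rho between exonic length and the shift was 0.61 in Adar5G1 replicate 3 and -0.59 in w1118 replicate 3 (10 genes that share the same libraries, given as a description). Most members moved further than their length class. In Adar5G1 replicate 3 Syx1A, Snap25, Rab3, Syn, Syt1, cpx and unc-13 lay above the middle 50% of their class, and nSyb, shi and brp lay within it. In w1118 replicate 3 Syx1A, Snap25, Rab3, Syt1, unc-13 and brp lay below the middle 50% of their class, and nSyb, Syn, shi and cpx lay within it.

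**Figure D3:**
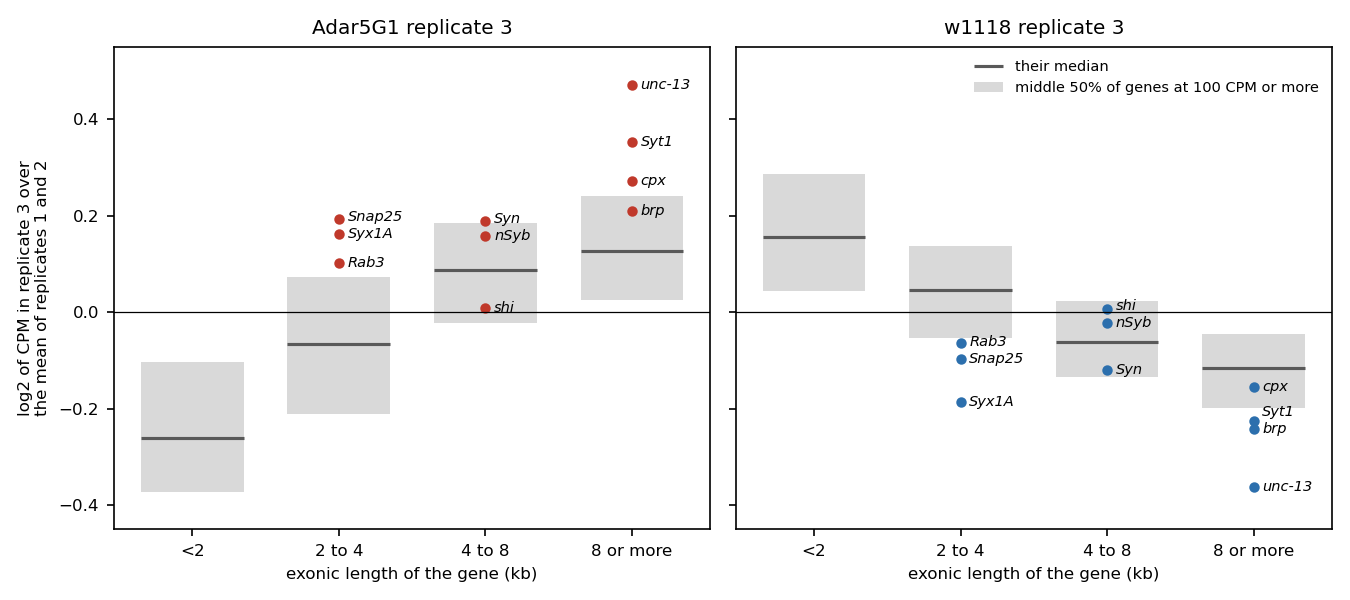
Log2 of the level in replicate 3 over the mean of replicates 1 and 2 of the same group, by exonic length class, for Adar5G1 (left) and w1118 (right). Grey boxes show the middle 50% of genes with at least 100 CPM with their median as a line, which runs from -0.26 to 0.13 on the left and from 0.16 to -0.12 on the right, and coloured points are the release machinery genes.

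A fit in which each library's smooth trend of level with exonic length was removed, chosen after the data were seen, gave a log2 fold change of 0.50 for Syt1 (SE 0.09, edgeR adjusted p = 0.00899). Its size was close to that without the correction, with a smaller error. The other 9 genes again did not pass, with unc-13 at 0.13 (SE 0.11), nSyb at -0.17 (SE 0.07) and shi at -0.18 (SE 0.06).

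Cell type markers also differed between the libraries numbered 3 and the others. The marker sets differed in gene length as well, with 5092 to 23308 exonic bases in the neuron markers. The photoreceptor genes ninaE and Arr2, which made up most of their sum, had 1597 and 1547. The part of gene length in the marker shifts was not tested. The summed level of 7 neuron markers was 7486, 7405 and 7981 CPM in Adar5G1 and 8384, 8323 and 7787 CPM in w1118, so replicate 3 was the highest of its group in the mutant and the lowest in the wild type. Of these markers 5 of 7 were highest in Adar5G1 replicate 3 within its group. The amyloid precursor homologue gene Appl was the 1 neuron marker that passed the test, as a fall (733 to 745 against 1093 to 1098 CPM), and elav, which encodes a pan-neuronal RNA-binding protein, overlapped between groups at 279 to 384 and 269 to 313 CPM. For 5 photoreceptor markers the sum was 17195, 17385 and 14979 CPM in Adar5G1 and 18199, 18847 and 19902 CPM in w1118, with 0 of 5 highest in Adar5G1 replicate 3. All 5 had negative log2 fold changes, with a median of -0.26, and 1 of 5, inaC, passed the test as a fall. At an unadjusted p under 0.05 (edgeR) 3 fell, against 11.3% of all genes. Without overlap 4 were lower in Adar5G1, against 14.4% of all genes. For 7 glia markers it was 1363, 1423 and 1268 CPM against 1435, 1341 and 1498 CPM, and Gli fell (27.5 to 32.3 against 37.6 to 44.9 CPM). The fat body sum over 3 matched genes, nearly all of it apolpp, was 5279, 5014 and 4227 CPM against 2661, 2328 and 3724 CPM, and Fbp2 had at most 0.148 CPM in any library. Of these genes apolpp, which encodes the main lipoprotein of the hemolymph, rose 1.67-fold (edgeR adjusted p = 0.0313). Muscle markers summed to 6444 to 6936 CPM and 6030 to 6834 CPM, and of 6 genes Mlp84B rose while Act88F and TpnC41C fell. Hemocyte markers summed to 356 to 555 CPM and 382 to 608 CPM, with 0 of 4 past the test (edgeR, 1 at an unadjusted p under 0.05, a fall). The part of photoreceptor, glia, fat body, muscle and hemocyte RNA in the members' values was not tested.

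The members were therefore also fitted with library sizes set from the summed neuron markers, which moved the median of all genes by 0.10 on the log2 scale. Most of that sum came from futsch and nrv3, with means of 3187 and 1751 of 7624 CPM in Adar5G1. Of the 7 markers 3 (elav, fne and Rbp9) had positive and 4 negative log2 fold changes, from -0.57 to 0.11, so the result depends on the markers summed. In the neuron-marker scaling Syt1 was 1.53-fold higher (log2 fold change 0.62, SE 0.10, edgeR adjusted p = 0.00655), and again no other member passed. The values of brp and Syn were 0.24 (adjusted p = 0.0842) and 0.20 (adjusted p = 0.083), and those of nSyb, Snap25 and Syx1A -0.07, -0.03 and 0.02. With Appl left out of the markers, a choice made after the data were seen, Syt1 was 1.47-fold higher (adjusted p = 0.0101) and the median of all genes was 0.04.

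Ratios of counts within a library do not depend on library scaling, and were computed after the data were seen for the 7 other genes over the summed counts of nSyb, Syx1A and Snap25. These 3 genes were themselves lower in Adar5G1, at -0.17, -0.08 and -0.12 on the log2 scale, which by construction raises the ratio of any gene. Of all other genes tested 28.9% had a higher ratio in every Adar5G1 library than in any w1118 library. For Syt1 the ratio was 1.27, 1.24 and 1.43 in Adar5G1 and 0.866, 0.853 and 0.770 in w1118, that is 1.58 times as high in the mean, and 1.46 times without both libraries numbered 3. For brp it was 0.680, 0.693 and 0.708 against 0.598, 0.585 and 0.523, or 1.22 times as high, and 1.16 times without both. Syn had 0.322, 0.324 and 0.328 against 0.276, 0.280 and 0.268, or 1.18 times, and 1.16 times without both, with a narrow spread within each group (SD 0.0032 and 0.0062). The mean ratio was 1.18 times as high for cpx (1.12 times without both libraries numbered 3), 1.24 times for unc-13 (1.08 times) and 1.05 times for Rab3 (1.07 times), each without overlap between the groups. For shi the groups overlapped, at 0.430 to 0.491 and 0.461 to 0.490. No test of the ratios is given, since a two-sided exact permutation test of 3 libraries against 3 cannot go below p = 0.1. A ratio of this kind does not tell which of its genes differed between the groups. It also keeps the trend of the libraries with gene length. The genes nSyb, Syx1A and Snap25 had 4072, 2832 and 2282 exonic bases, against 9043 to 19453 for Syt1, cpx, brp and unc-13.

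**Figure D4:**
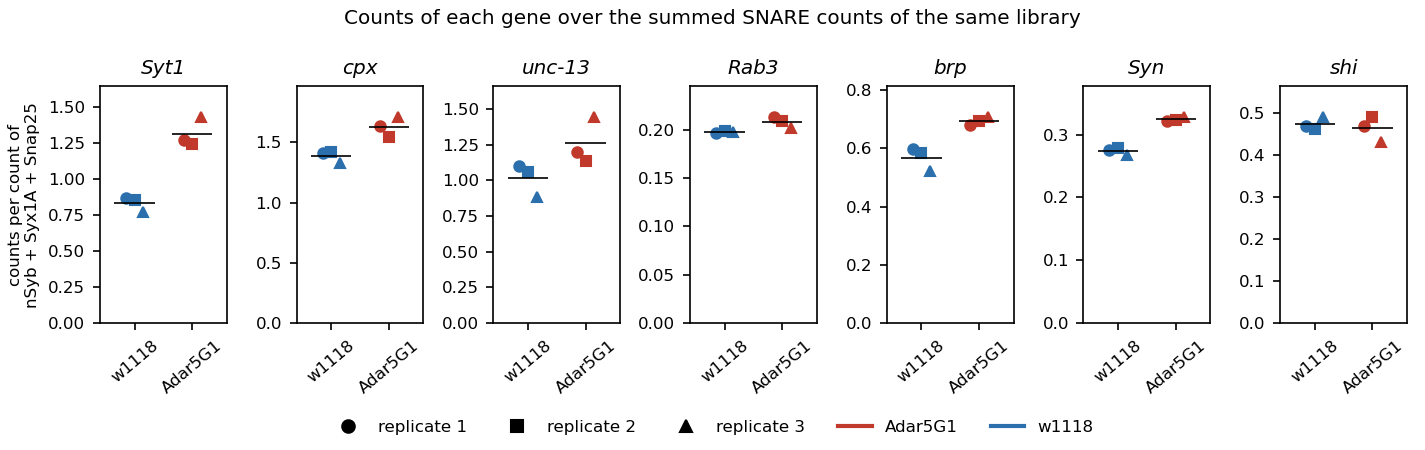
Counts of each gene per count of nSyb, Syx1A and Snap25 together in the same library (axes from 0), by group, with the symbol shape giving the replicate number and black lines the group means. Adar5G1 lies above w1118 in every library for Syt1, cpx, unc-13, Rab3, brp and Syn, and the groups overlap for shi.

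The wider vesicle cycle was described with 4 lists of 58 names, of which 52 were matched to the files and 51 counted, since stnA and stnB share all their exons and had identical counts. Of these 51 genes 0 rose and 3 fell in Adar5G1 (edgeR), where 8.82% and 5.13% of all genes did so. At an unadjusted p under 0.05 there were 2 rises and 4 falls, against 15.1% and 11.3% of all genes, and DESeq2 and limma-voom each gave 0 rises. The median log2 fold change was -0.02, and 47 of 51 genes lay within 0.3 of 0 on the log2 scale.

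Among 17 regulators of SNAREs and release 2 fell, with a median log2 fold change of -0.06. The gene comt (FBgn0000346, X:13153054-13156521), which encodes the NSF ATPase that takes SNARE complexes apart after fusion, had 298, 308 and 269 CPM in Adar5G1 and 357, 338 and 357 CPM in w1118. Every mutant library was below every wild-type library, with a log2 difference of -0.27 (SE 0.07, adjusted p of 0.0487 in edgeR) that lost its call when any 1 library was left out, without both libraries numbered 3, with no filter, with total counts only and with neuron-marker scaling with or without Appl. Its log2 fold change stayed negative in every fit tried, from -0.33 to -0.17. The GTPase gene Rab27 (FBgn0025382, X:1367917-1371007) had 5.10, 4.72 and 4.21 CPM against 6.62, 7.26 and 7.56 CPM, a log2 fold change of -0.62 (SE 0.15, adjusted p = 0.0242). The call of Rab27 was lost with DESeq2, with total counts only and with neuron-marker scaling with or without Appl. It was also lost without Adar5G1 replicate 2 or 3 or w1118 replicate 2 or 3, and without both libraries numbered 3. The paralogue of nSyb, Syb, which acts in general membrane traffic, was named after its values were seen: it had 42.8 to 46.2 CPM in Adar5G1 and 32.4 to 40.9 CPM in w1118, without overlap (log2 fold change 0.28, adjusted p = 0.104).

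Of 9 active zone and calcium channel genes 0 passed in either direction (edgeR, 0 at an unadjusted p under 0.05, 0 with DESeq2 and limma-voom), with a median log2 fold change of 0.05. The calcium channel subunit gene cac had 484, 482 and 656 CPM in Adar5G1 and 570, 547 and 427 CPM in w1118, and the scaffold gene Rim 481, 460 and 637 CPM against 470, 486 and 383 CPM. In both genes the highest library was Adar5G1 replicate 3 and the lowest w1118 replicate 3, as in unc-13. Of the 9 genes 8 were the highest of all 6 libraries in Adar5G1 replicate 3, against 31.3% of abundant genes. That share is not matched for gene length. The 8 genes had 6115 to 14257 exonic bases, lengths at which abundant genes were mostly higher in that library, and the exception, Arl8, had 1901.

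Of 6 vesicle transporter and cargo genes 1 fell, with a median log2 fold change of -0.02. It was prt (FBgn0043005, 3R:19522094-19524749), which encodes a vesicular transporter-like protein found in mushroom body neurons. It had 3.69, 3.54 and 4.26 CPM in Adar5G1 and 16.6, 12.1 and 13.2 CPM in w1118, 3.54-fold lower (log2 fold change -1.82, SE 0.17, edgeR adjusted p = 3.2e-04), and passed in all 21 fits tried. The monoamine transporter gene Vmat had 435 to 500 CPM in Adar5G1 and 441 to 491 CPM in w1118, and the proton pump subunit gene Vha100-1 305 to 332 CPM and 318 to 327 CPM, both with overlap.

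Of 19 endocytosis genes 0 passed (edgeR, 0 at an unadjusted p under 0.05, 0 with DESeq2 and limma-voom), with a median log2 fold change of -0.02 and a range of -0.18 to 0.19. The stoned transcript, which encodes the vesicle recycling proteins stnA and stnB, had 1097, 1120 and 1069 CPM in Adar5G1 and 1204, 1205 and 1161 CPM in w1118. These groups did not overlap, and the log2 fold change was -0.12 (SE 0.08, adjusted p = 0.383). The gene tweek, which acts in vesicle recycling, had 548 to 562 CPM in Adar5G1 and 532 to 562 CPM in w1118.

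Without both libraries numbered 3 the picture in the lists changed, with 7 falls and 1 rise of 51, where 6.38% of all genes fell and 11.6% rose. The falls were those of Cadps, Syt4, Syt14, Sytbeta, prt, lap and sky, and the rise that of Syb. Of the exonic bases of sky 75.5% were shared with CG43739 on the same strand, and fragments there were counted for both genes. The synaptotagmin genes Syt4, Syt14 and Sytbeta had the opposite direction to Syt1 without both libraries numbered 3. With all 6 libraries they had log2 fold changes of -0.17, -0.16 and -0.31 and did not pass (edgeR adjusted p = 0.241, 0.49 and 0.116), while Syt7 had 0.34 (adjusted p = 0.132).

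**Figure D5:**
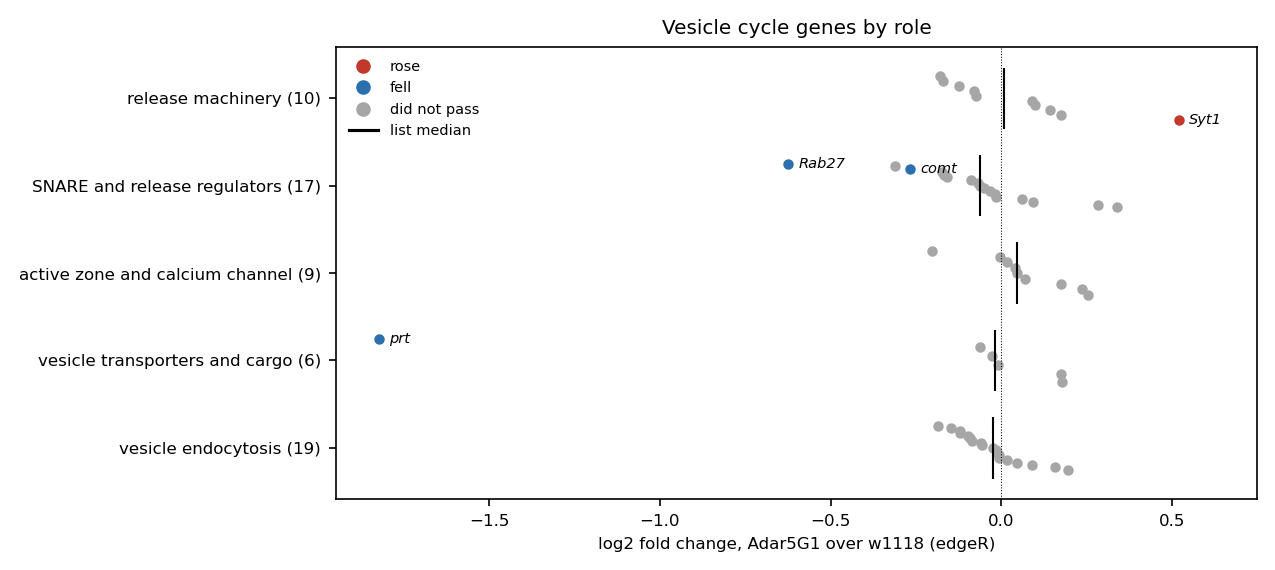
Log2 fold change of each gene, Adar5G1 over w1118, in the release machinery and in 4 lists of the wider vesicle cycle, with the number of genes in brackets and the list median as a black line. Syt1 (red) rose, Rab27, comt and prt (blue) fell, and the other genes (grey) did not pass the test.

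Gene structure varied widely among the members. The Snap25 gene spanned 225026 bases, of which 1.01% were exonic, while Syx1A spanned 4164 bases in 2 exon blocks, 68.0% of them exonic. Inside the Snap25 gene, on the same strand and sharing none of its exons, lay the ID FBgn0265471, to which no symbol was matched. It had 7.68, 7.68 and 11.97 CPM in Adar5G1 and 5.46, 5.60 and 3.996 CPM in w1118, a log2 difference of 0.88 (SE 0.23, adjusted p of 0.0343 in edgeR), with Snap25 itself at -0.12. Its log2 fold change was 0.60 without Adar5G1 replicate 3 (adjusted p = 0.0815) and 0.47 without both libraries numbered 3 (adjusted p = 0.105), so the call was lost.

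The mean profile of the 10 genes over the libraries, as the average of each gene's log2 level around its own mean, was -0.03, -0.07 and 0.16 in Adar5G1 and 0.04, 0.02 and -0.12 in w1118. The genes outside all lists that were nearest to it, among 7805 with at least 5 CPM, were Eip63E, a cyclin-dependent kinase gene, Alk, a receptor tyrosine kinase gene, PAN3, CG42748 and CG33203. Their root mean square difference from the profile over the 6 libraries was 0.013 to 0.023 on the log2 scale. Each of the 5 was highest in Adar5G1 replicate 3 and lowest in w1118 replicate 3, and none passed the test (edgeR adjusted p 0.773 to 0.903). Both traits follow from choosing the 5 genes by their nearness to this profile.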

How the data were processed

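RNA of fly heads was depleted of ribosomal RNA and sequenced as paired ends, per the labels' protocols. The deposited values are whole-number counts of fragments per gene, 1 library per file, made by the authors with featureCounts 1.4.5-p1 (reverse-stranded, exons summed by gene, fragments over several genes counted for each) on FlyBase release 5.53, per the file headers. TopHat and the build dm3 are named in the submitters' processing notes. The row without a gene ID, 0.369% to 0.633% of counts, was left out. Symbols were matched by ID for 15924 of 16641 genes.

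Counts were analysed over the whole table in R 4.3.3 by edgeR 4.0.16 (genes kept by filterByExpr at a minimum count of 10, TMM factors, quasi-likelihood F test, group as the only term), with Benjamini-Hochberg adjustment over 10201 genes and a threshold of 0.05. Levels are CPM scaled by TMM. Standard errors and 95% intervals come from the fit's weights and quasi-dispersion. In 5 simulated data sets of 10201 genes for this comparison, with 200 genes changed in each, the fit recovered 63.0% of 1.5-fold and 98.3% of 2-fold changes, and 7.69% of its calls were false. The data gave more calls than that, 900 rises and 523 falls, and these rates were not measured at such a share of changed genes. Alternatives were DESeq2 1.42.0, limma-voom 3.58.1, other scalings and filters, robust dispersion, a replicate block, protein-coding genes only and left-out libraries, with neuron-marker scaling without Appl and the length correction added after the data were seen. The members and lists were chosen with earlier results of these data known. Beside the 10 members and Adar, the text names, in each pathway list, genes past the threshold (at most 6, by p) and, where fewer than 2 passed, the 2 with the highest mean CPM. Marker genes and others named beyond this rule were chosen after their values were seen. Deviations from group means correlated at 0.134, -0.192 and -0.298 over genes between libraries of the same number, so the numbers were not treated as pairs. Sequences are not shown.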

Additional observations from a re-analysis of the deposited data

How the results depend on the processing

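The rise of Syt1 kept its direction in all 21 fits (log2 fold change 0.32 to 0.62) and passed in 14 of them. The number of members that rose, 1 in the main test, was 0 with upper-quartile scaling, with total counts only, with the replicate block (Syt1 log2 fold change 0.51, adjusted p = 0.131) and at an adjusted p of 0.01, and 0 to 1 when 1 library was left out. Members that fell numbered 0, and 2 without both libraries numbered 3. The cause of these differences was not tested. Signs of members that did not pass turned without both libraries numbered 3 for brp (-0.0081), cpx (-0.057), Syn (-0.0073) and unc-13 (-0.11), without Adar5G1 replicate 3 for cpx (range -0.0055 to 0.16 with 1 library left out), and with neuron-marker scaling for Rab3 (0.024) and Syx1A (0.020). In the 4 lists, falls numbered 3, 2 with DESeq2 and with no filter, 1 with total counts only, neuron-marker scaling with or without Appl, the replicate block and an adjusted p of 0.01, 7 without both libraries numbered 3, and 1 to 4 with 1 library left out. Rises numbered 0, 4 with neuron-marker scaling, 1 without both libraries numbered 3, and 0 to 1 with 1 library left out. Over all genes 582 rose and 209 fell with total counts only, 1092 rose and 334 fell with neuron-marker scaling, 812 rose and 764 fell with upper-quartile scaling, 1170 rose and 641 fell without both libraries numbered 3, 484 rose and 278 fell with the replicate block, and 456 rose and 248 fell at an adjusted p of 0.01. With 1 library left out 545 to 1024 rose and 331 to 515 fell, both lowest without w1118 replicate 1. The replicate block used numbers that did not pair the libraries.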
